A study of Homo sapiens with 4 samples.

Results

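The amino acid response and tRNA synthetase genes examined here comprised 42 genes, 30 of the amino acid response and 12 aminoacyl-tRNA synthetases, among 60676 Ensembl gene IDs listed for each library. They were chosen by a fixed list of Ensembl IDs with symbols, read in all 4 libraries. The deposited values carry IDs only, so the pairing of ID and symbol is that of the list. All 42 symbols stand in the RefSeq gene table, where 0 genes carry an Ensembl ID. The series sequenced RNA precipitated with SRP9, a protein component of the signal recognition particle. The protein had been directed to the nucleus of MiaPaCa cells, an established human pancreatic cancer line. All 4 groups carried a construct in which SRP9 variant 1 or variant 2 was joined to a nuclear localisation signal and a triple FLAG tag, with acGFP1 expressed from the same vector through an internal ribosome entry site. Transfected cells were selected with Geneticin, sorted for acGFP1 and cultured in RPMI1640 medium with serum, per the labels' protocols. The groups were RNA immunoprecipitation (RIP) with variant 1, RIP with variant 2, and whole-cell RNA (input) from each of these experiments, with 1 library in each group. No precipitation without tagged SRP9 and no cells without a construct were analysed here. Markers of the cell type could not be read because they have no named ID.

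When an amino acid runs short, uncharged tRNA activates the kinase GCN2, which phosphorylates the initiation factor eIF2. General translation then slows while the mRNA of the transcription factor ATF4 is translated more. ATF4 pairs with C/EBP proteins and induces genes for amino acid synthesis, amino acid uptake and tRNA charging, many of them through a C/EBP-ATF response element. The aminoacyl-tRNA synthetases join each amino acid to its tRNA.

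Promoter windows were searched for the core of this response element, TGATGNAA, on both strands. The list is made of genes of this response, many of which are induced through the element. A higher share of matches among them is thus partly built into the choice of genes and is no independent result. RefSeq windows (build GRCh38.p14, 250 bases before to 50 after a start site) were found for 33 of the 42 genes. A match was present in 15 of these 33 genes (45.5%), against 1217 of 27305 genes with a window (4.46%) and 3.62% of all 35116 windows. The stricter form TGATGCAA, which is contained in the first, was present in 10 of the 33 genes and in 1.08% of all genes with a window. Among synthetases, 7 of 10 with a window held the core, and among response genes 8 of 23. The windows below are shown because they carry the element in 7 synthetases, in ASNS (asparagine synthetase) and in CHAC1 (a glutathione-degrading enzyme). They are 30 bases long and read 5′ to 3′ on the strand of the gene, with the core, or its reverse complement, in capitals.
AARS1 (chr16:70289675-70289704, minus strand): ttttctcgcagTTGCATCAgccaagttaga
CARS1 (chr11:3057407-3057436, minus strand): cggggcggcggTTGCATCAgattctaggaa
GARS1 (chr7:30594834-30594863, plus strand): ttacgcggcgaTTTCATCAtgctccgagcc
IARS1 (chr9:92293692-92293721, minus strand): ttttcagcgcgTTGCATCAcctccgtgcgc
MARS1 (chr12:57488053-57488082, plus strand): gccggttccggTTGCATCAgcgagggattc
NARS1 (chr18:57621804-57621833, minus strand): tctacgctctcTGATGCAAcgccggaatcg
TARS1 (chr5:33440956-33440985, plus strand): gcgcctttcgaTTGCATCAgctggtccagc
ASNS (chr7:97872458-97872487, minus strand): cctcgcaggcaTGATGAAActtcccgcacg
CHAC1 (chr15:40953251-40953280, plus strand): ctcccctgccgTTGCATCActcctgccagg

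The remaining matches were in ATF3, CEBPG, JDP2, SLC1A5, SLC3A2 and SLC7A1. The core began within 50 bases of the start site in 10 of the 15 genes. It lay across the start site in CARS1 and MARS1, and 187 bases before it in AARS1. A match is a description of these letters, and no binding of ATF4 was measured.

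**Figure D1:**
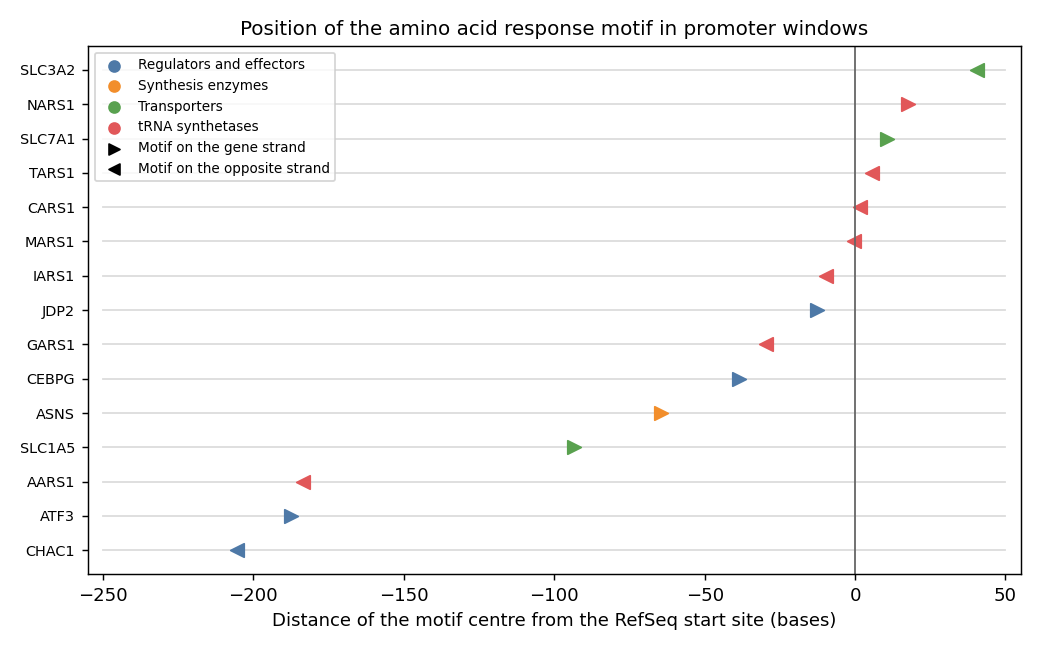
Distance in bases of the centre of the TGATGNAA core from the RefSeq start site (vertical line) in the 15 genes with a match, coloured by role, with triangles pointing right for the gene strand and left for the opposite strand. Grey lines span the window searched, and 10 of the 15 cores begin within 50 bases of the start.

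The RIP libraries held 3921361 (variant 1) and 5211354 (variant 2) counts and the inputs 50454080 and 58815384, so a floor of 3 counts was 0.765, 0.576, 0.0595 and 0.0510 CPM (counts scaled to the library total) in that order. The 42 genes together made up 0.229% of RIP variant 1 (95% exact binomial bounds 0.224% and 0.234%) and 0.211% of RIP variant 2 (bounds 0.207% and 0.215%). They made up 0.472% and 0.525% of the inputs of variants 1 and 2. These intervals, like all those given, cover counting error only, since amplified reads are not independent molecules. Of the 42 genes, 21 overlap another RefSeq gene, among them MARS1 and DDIT3, which overlap each other. AARS1 overlaps RN7SL279P, a pseudogene of 7SL, the RNA of the signal recognition particle. Reads of overlapping genes cannot be assigned with certainty, and 19 of the 42 had a fractional count in at least 1 library.

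Most of these mRNAs were less represented in the RIP libraries than in whole-cell RNA. Both RIP libraries were set against both inputs in edgeR's quasi-likelihood test, adjusted over 41622 IDs, with calls at a Benjamini-Hochberg adjusted p under 0.05. Of the 42 genes, all tested, 29 were lower, 5 were higher and 8 were not called, with a median log2 RIP over input of -2.31. All 12 synthetases, all 6 amino acid transporters and the tRNA exporter XPOT were lower. The higher genes were STC2, NUPR1, VLDLR, JDP2 and ALDH1L2. STC2 listed 0 in both inputs and could be tested only through its RIP counts. The constructs stood in as the 2 samples of each fraction, so the p-values cover no more than how far these libraries differ.

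The lower calls have to be read against the whole table. Of all IDs tested, 15.8% were lower and 49.5% higher, with a median log2 of 3.65, because many IDs had few or no input counts. Of the 15450 expressed IDs, meaning those with 50 counts or more in each input, 42.1% were lower and 8.33% higher, with a median of -1.15 under TMM scaling. When these IDs were fitted alone with their own scaling, their median was -0.03, and 23.7% were lower and 22.1% higher. In that fit 23 of the 40 listed genes it held were lower and 6 higher, with a median of -1.36. Library totals in place of TMM gave 22 lower and 8 higher among the 42, where 20.8% of the expressed IDs (7.72% of all tested) were lower and 20.4% (58.3%) higher. By promoter, under TMM scaling, 11 of the 15 genes with the response element core were lower and 1 was higher, with a median log2 ratio of -2.10. Of the 18 genes whose window held no match, 13 were lower and 2 higher (median -2.69), and of the 9 without a window 5 were lower and 2 higher (median -1.84).

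Input abundance moved with the ratio. Among IDs with summed input counts over 20000 and up to 50000, 99.7% were lower in RIP, and so were all 11 listed genes in that range. From 10000 to 20000 counts, 98.4% of IDs and all 9 listed genes were lower. From 5000 to 10000 it was 89.1% of IDs and 5 of 7 listed genes, and from 1000 to 5000 it was 35.8% of IDs and 4 of 10. Below that, 5.25% of IDs from 200 to 1000 counts and 0.817% of those with fewer were lower, and none of the 4 listed genes there (CHAC1, JDP2, NUPR1 and VLDLR). The listed genes thus took shares near those of other IDs of like input abundance. Of the 41 with an input count, 9 lay outside the 10th to 90th percentile of their range, where 20% of all IDs lie by construction. ALDH1L2, PHGDH, GPT2 and SLC3A2 lay above it, and ATF4, SLC38A2, CEBPB, DDIT4 and TARS1 below. Input abundance enters both the ranges and the ratio, and its part in the result of any single gene was not tested.

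**Figure D2:**
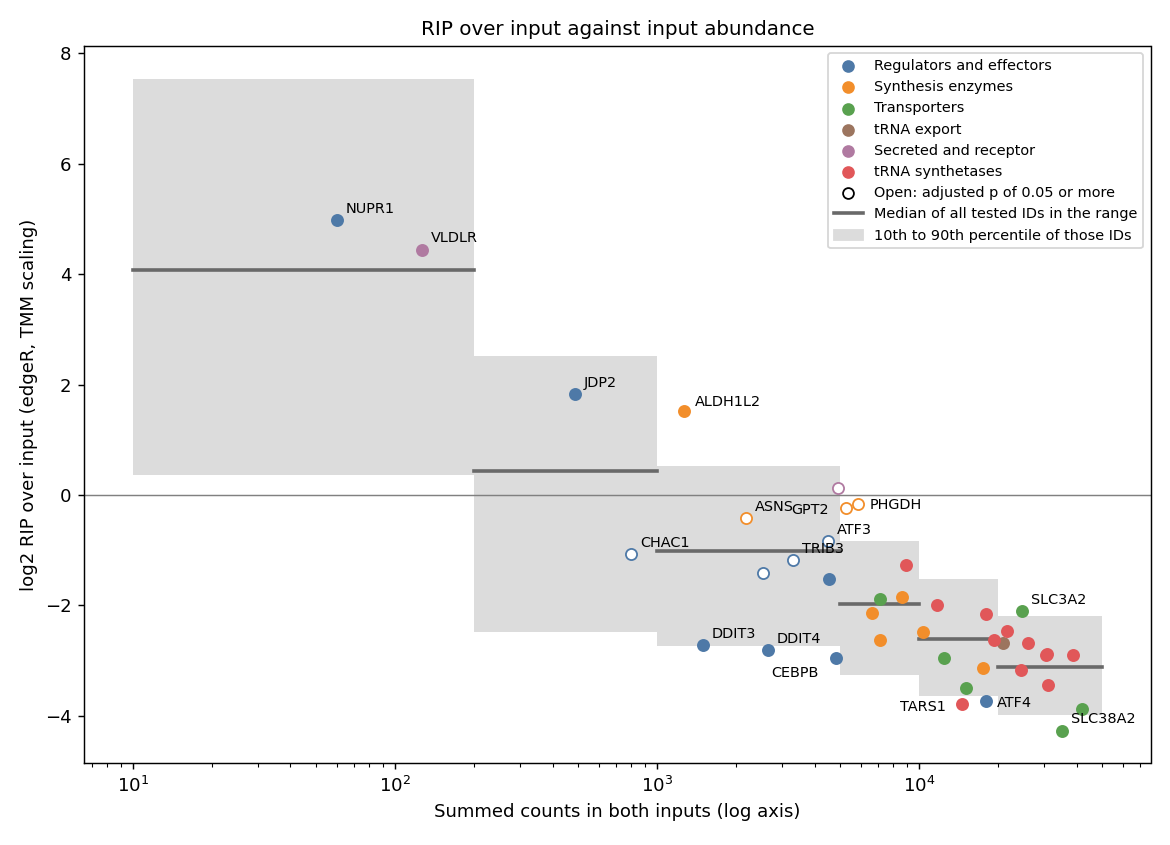
Log2 RIP over input from the edgeR fit (vertical axis) against the summed counts of both inputs (horizontal log axis) for the 41 genes with an input count, coloured by role and open where not called. Grey boxes span the 10th to 90th percentile and dark lines mark the median of all tested IDs in each range of input counts (the first range is drawn from 10 counts), and 32 of the 41 genes lie inside the boxes.

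Levels of the listed genes were also less spread in RIP than in input. The 90th percentile of their CPM was 41.1 times the 10th in the input of variant 1 and 33.9 times in that of variant 2. It was 7.03 times in RIP variant 1 and 6.44 times in RIP variant 2. Over the expressed IDs the same quotients were 58.8 and 59.9 in the inputs and 31.5 and 18.8 in RIP. The rank correlation of counts between an input and its own RIP library across the 42 genes was 0.38 (variant 1) and 0.52 (variant 2). It was 0.99 between the inputs and 0.77 between the RIP libraries. Over the 15450 expressed IDs the same correlations were 0.50 and 0.54 (each input with its RIP), 0.97 and 0.82. These correlations describe genes of different length that share libraries, and gene lengths were not used.

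**Figure D3:**
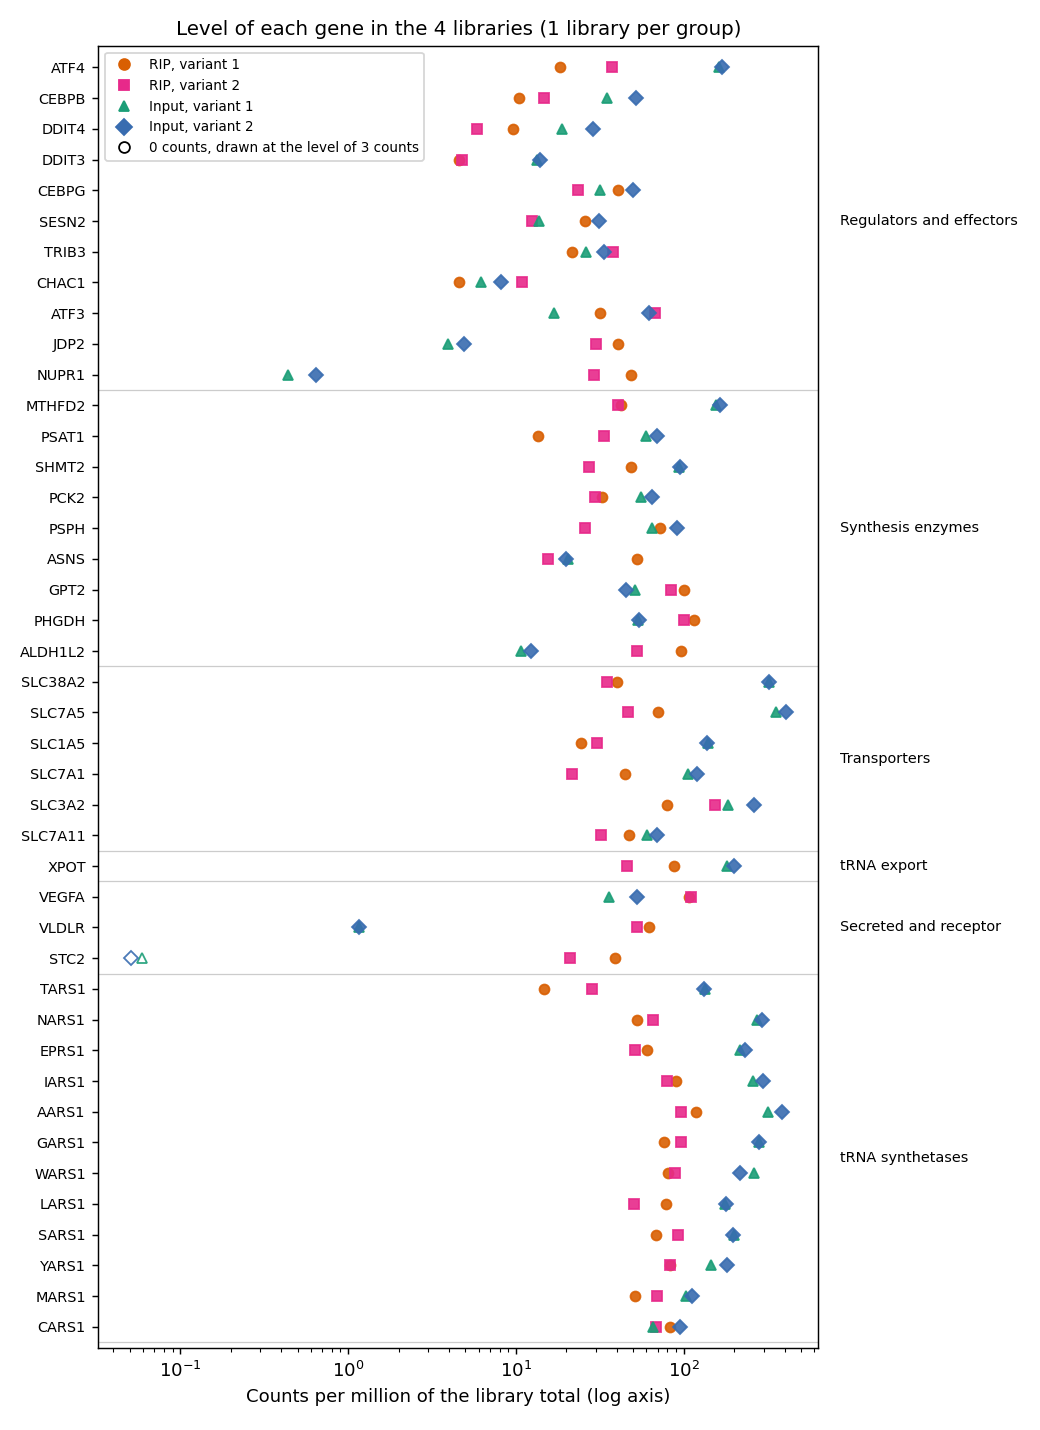
CPM, counts scaled to the library total (horizontal log axis), for each of the 42 genes in the 4 libraries, 1 symbol per library, with genes grouped by role. Open symbols mark 0 counts, drawn at the level of 3 counts. In all 12 synthetases except CARS1 both inputs lie above both RIP libraries, and the share of all IDs so separated was not counted. In the ranges of input counts that hold the synthetases, 89.1% to 99.7% of IDs were called lower in RIP by the edgeR test. Those calls are another measure than this separation.

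Of the synthetases, 12 of 12 were lower in RIP, with log2 ratios from -3.79 to -1.26 (median -2.78). In all that follows, paired values are of variant 1 and then variant 2. TARS1 (ENSG00000113407), which charges threonine tRNA, had 14.8 and 28.6 CPM in RIP against input levels of 134 and 132. Both RIP values lay far below both inputs, with a log2 ratio of -3.79 ± 0.38 (SE, edgeR adjusted p = 0.0011). NARS1, the asparagine enzyme, had 52.5 and 65.6 CPM in RIP and 276 and 293 in the inputs, with a log2 ratio of -3.44 ± 0.25 (edgeR adjusted p = 0.00061). EPRS1, which carries the glutamate and proline activities in 1 protein, had 60.2 and 51.4 CPM in RIP against 216 and 231, a log2 ratio of -3.18. For both genes the RIP libraries did not overlap the inputs. The share of all IDs so separated was not counted, here or for the genes that follow.

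The ratios of the alanine, glycine and isoleucine enzymes were nearly the same. AARS1 had 119 and 95.9 CPM in RIP and 318 and 388 in the inputs, and its log2 ratio was -2.89. GARS1 had 76.9 and 96.4 CPM in RIP and 281 and 282 in the inputs, with a log2 ratio of -2.88. IARS1 had 89.5 and 79.6 CPM against 260 and 296, with a log2 ratio of -2.89. The SE of each of these 3 ratios was between 0.24 and 0.25, larger than the differences between them.

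WARS1, the tryptophan enzyme, which interferon also induces, had 80.2 and 88.4 CPM in RIP and 263 and 218 in the inputs, with a log2 ratio of -2.69. LARS1, the leucine enzyme, had 78.8 and 50.5 CPM in RIP against 178 in both inputs, and its log2 ratio was -2.64. SARS1, for serine, had 68.6 and 93.1 CPM against 201 and 197, with a log2 ratio of -2.47. In each of these genes both RIP libraries were below both inputs.

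YARS1, for tyrosine, had 82.9 and 82.7 CPM in RIP and 146 and 180 in the inputs, a log2 ratio of -2.15. MARS1, for methionine, had 51.3 and 69.8 CPM against 103 and 112, a log2 ratio of -2.0. CARS1, the cysteine enzyme, had 82.9 and 68.9 CPM in RIP and 66.2 and 95.2 in the inputs, so its libraries overlapped on this scale. Its log2 ratio of -1.26 ± 0.30 was called under TMM scaling (edgeR adjusted p = 0.012) but was -0.07 on library totals (adjusted p = 0.86). Fitted among expressed IDs, CARS1 had a ratio of -0.14 (adjusted p = 0.71), and the call was also lost without either RIP library or without the input of variant 2 (adjusted p = 0.063, 0.092 and 0.056). The other 11 synthetases were lower in every alternative tried. They lie in ranges of input counts where 98.4% to 99.7% of IDs were lower in the main fit.

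The amino acid transporters and the tRNA exporter were lower in RIP as well, 7 of 7. These genes too had summed input counts over 5000, in ranges where 89.1% to 99.7% of IDs were lower. SLC38A2 (ENSG00000134294), a sodium-coupled carrier of small neutral amino acids, had 40.3 and 35.1 CPM in RIP and 322 in both inputs. This was the lowest ratio of the list, at -4.27 ± 0.25 (edgeR adjusted p = 0.00060), with input over RIP at 18.1-fold for variant 1 and 20.7-fold for variant 2 after TMM scaling. On library totals these folds were 7.99 and 9.18. SLC7A5, the light chain of the leucine exchanger LAT1, had 70.5 and 46.7 CPM in RIP and 357 and 406 in the inputs, a log2 ratio of -3.88 ± 0.30 (edgeR adjusted p = 0.00066). SLC3A2, the heavy chain shared by LAT1 and the cystine exchanger, had 79.6 and 155 CPM in RIP against 183 and 263, a log2 ratio of -2.10. It lay above the 90th percentile of its range of input counts while its partner SLC7A5 lay inside.

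SLC1A5, a glutamine carrier, had 24.4 and 30.6 CPM in RIP and 139 and 137 in the inputs, with a log2 ratio of -3.50. SLC7A1, which imports arginine and lysine, had 44.6 and 21.7 CPM against 106 and 121, with a log2 ratio of -2.95. SLC7A11, the light chain of the cystine exchanger, had 47.2 and 32.3 CPM against 60.5 and 69.1, with a log2 ratio of -1.88. XPOT, which exports tRNA from the nucleus, had 88.0 and 46.1 CPM in RIP and 181 and 199 in the inputs, with a log2 ratio of -2.68. The inputs exceeded both RIP libraries in each of these genes. On library totals SLC3A2 and SLC7A11 were not called (edgeR adjusted p = 0.077 and 0.11), nor in the fit of expressed IDs (0.060 and 0.087). SLC3A2 also just missed the threshold in limma-voom (adjusted p = 0.0501).

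The enzymes of amino acid and one-carbon synthesis were divided, with 5 of 9 lower, 1 higher and 3 not called. Of the expressed IDs, 42.1% were lower and 8.33% higher (15.8% and 49.5% of all tested). For the serine pathway, values are given in the order of its steps. PHGDH, which opens the pathway, had 115 and 101 CPM in RIP and 53.2 and 54.2 in the inputs. Its log2 ratio of -0.17 ± 0.26 was not called under TMM scaling (edgeR adjusted p = 0.59), but library totals gave 1.03 (adjusted p = 0.014) and the fit of expressed IDs 0.95 (0.020). PSAT1, the second enzyme, had 13.5 and 33.8 CPM in RIP against 59.4 and 69.8, a log2 ratio of -2.62 (edgeR adjusted p = 0.0058). PSPH, the last enzyme, had 72.2 and 25.8 CPM in RIP and 64.6 and 91.0 in the inputs, so that RIP variant 1 lay between the inputs. Its log2 ratio was -1.84 ± 0.51 (edgeR adjusted p = 0.018), and the call was lost without RIP variant 2 (adjusted p = 0.074) and on library totals (0.30). A difference in ratio between PHGDH and the later enzymes was not tested.

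SHMT2, which turns serine into glycine in mitochondria, had 48.8 and 27.4 CPM in RIP against 94.0 and 95.8, a log2 ratio of -2.49. MTHFD2, the next mitochondrial folate enzyme, had 42.1 and 40.7 CPM against 156 and 164, a log2 ratio of -3.13. ALDH1L2, a further mitochondrial folate enzyme, went the other way, with 96.7 and 52.5 CPM in RIP against 10.7 and 12.4. Both RIP values exceeded both inputs, and its log2 ratio was 1.52 ± 0.44 (edgeR adjusted p = 0.022). ALDH1L2 lay above 98.4% of the IDs in its range of input counts. Its call was lost with the construct as a block (adjusted p = 0.063), without RIP variant 1 (0.15) and without the input of variant 1 (0.088) or variant 2 (0.10).

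ASNS (ENSG00000070669) had RIP levels of 52.7 CPM (variant 1) and 15.5 CPM (variant 2) and input levels of 20.4 and 19.8. The RIP libraries thus lay on opposite sides of the inputs, and its log2 ratio of -0.42 ± 0.62 was not called (edgeR adjusted p = 0.57). GPT2, a mitochondrial alanine aminotransferase, had 101 and 84.4 CPM in RIP against 51.3 and 45.4. Its ratio of -0.24 was not called under TMM scaling and was 0.96 on library totals (edgeR adjusted p = 0.023). PCK2, the mitochondrial PEP carboxykinase, had 32.6 and 29.6 CPM in RIP against 56.0 and 64.9, with a log2 ratio of -2.14.

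Among the regulators and stress effectors 5 of 11 were lower, 2 higher and 4 not called. The shares were 42.1% lower and 8.33% higher among expressed IDs (15.8% and 49.5% of all tested). ATF4 (ENSG00000128272) had 18.4 and 37.4 CPM in RIP (72 and 195 counts) and 162 and 169 in the inputs. Its log2 ratio was -3.74 ± 0.39 (edgeR adjusted p = 0.0013). After TMM scaling, input exceeded RIP 19.9-fold for variant 1 and 10.2-fold for variant 2. On library totals these folds were 8.80 and 4.52. The C/EBP partners of ATF4 were lower too. CEBPB had 10.5 and 14.8 CPM against 35.0 and 52.4, a log2 ratio of -2.96. CEBPG had 40.5 and 23.6 CPM against 31.5 and 49.9, so its libraries overlapped. Its ratio of -1.52 ± 0.44 (edgeR adjusted p = 0.021) was not called with the construct as a block (0.051), on library totals (0.55), or without RIP variant 1, RIP variant 2 or the input of variant 2 (0.063, 0.12 and 0.060).

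DDIT3 (CHOP, ENSG00000175197), a transcription factor of prolonged stress, rested on few RIP reads. It had 18 and 25 counts in RIP (4.59 and 4.80 CPM) and 13.4 and 13.9 CPM in the inputs, a log2 ratio of -2.72 ± 0.70 (edgeR adjusted p = 0.015). The call was lost with the construct as a block (edgeR adjusted p = 0.089), on library totals (0.13) and among expressed IDs alone (0.052). It was lost too without RIP variant 1 or RIP variant 2, at a log2 ratio of -2.72 each time. DDIT4, an inhibitor of mTORC1, had 9.56 and 5.85 CPM in RIP against 18.9 and 28.9, a log2 ratio of -2.81 (edgeR adjusted p = 0.0084). It was not called on library totals (0.076) or in limma-voom (adjusted p = 0.057). Nor was DDIT4 called without RIP variant 2, where its log2 ratio was -2.45.

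TRIB3 (ENSG00000101255), a pseudokinase that restrains ATF4, had 21.7 and 38.2 CPM in RIP and 26.2 and 33.7 in the inputs. Its log2 ratio was -1.18 ± 0.44, at an edgeR adjusted p of 0.050 that just missed the threshold. CHAC1 (ENSG00000128965) had 4.59 and 10.9 CPM in RIP (18 and 57 counts) against 6.22 and 8.21, with a ratio of -1.07 ± 0.87. ATF3, a stress-induced repressor, had 31.6 and 67.4 CPM in RIP against 16.9 and 62.0, with a ratio of -0.84 ± 0.66. SESN2, a leucine sensor upstream of mTORC1, had 25.8 and 12.5 CPM against 13.7 and 31.3, with a ratio of -1.41 ± 0.63. In these 4 genes RIP and input overlapped on the CPM scale, and none was called (edgeR adjusted p = 0.050, 0.31, 0.29 and 0.088). Without the input of variant 1, ATF3 and SESN2 were called lower (0.031 and 0.020), as were TRIB3 and SESN2 with no filter on low counts (0.028 and 0.042). The ratios of TRIB3, CHAC1 and ATF3 were above 0 on library totals, without a call.

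NUPR1 (ENSG00000176046), a small stress-induced chromatin protein, and JDP2, a bZIP repressor related to ATF3, were higher in RIP. NUPR1 had 48.5 and 29.2 CPM in RIP (190 and 152 counts) against 0.436 and 0.646 in the inputs (22 and 38 counts), a log2 ratio of 4.98 ± 0.79 (edgeR adjusted p = 0.0041). JDP2 had 40.8 and 29.9 CPM against 3.96 and 4.90, a log2 ratio of 1.82 ± 0.61 (edgeR adjusted p = 0.036). The call of JDP2 was lost with the construct as a block (edgeR adjusted p = 0.14) and with no filter on low counts (0.075). It was lost too without any 1 of the 4 libraries, at log2 ratios from 1.55 to 2.05. For both genes every RIP library exceeded every input. Among IDs with 1 to 200 summed input counts 47.8% were higher in RIP, and from 200 to 1000 counts 18.3%, so such calls were frequent at this input abundance.

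The secreted factors and the receptor on the list were either higher in RIP or not called. STC2 (ENSG00000113739), a secreted glycoprotein hormone, had 152 and 110 counts in RIP (38.8 and 21.1 CPM, 95% exact Poisson intervals 32.8 to 45.4 and 17.3 to 25.4) while each input listed 0. With a floor of 3 counts per input and TMM scaling, the RIP level was at least 288-fold higher (variant 1) and at least 184-fold higher (variant 2), at an edgeR adjusted p of 0.0028. Scaling by library totals put these lower bounds at 652-fold and 414-fold. All 12812 tested IDs at 0 in both inputs were called higher, and only their RIP counts let them be tested. The 28425 IDs at 0 in both inputs include these 12812 and others that the count filter left out. Of the 28425, 363 (1.28%) had at least as many counts as STC2 in both RIP libraries. The values of STC2 in all 4 libraries were shared by 1 other ID.

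VLDLR (ENSG00000147852), a lipoprotein and reelin receptor, had 61.8 and 53.1 CPM in RIP against 1.17 and 1.16 in the inputs, a log2 ratio of 4.44 ± 0.56 (edgeR adjusted p = 0.0022). The groups were far apart, with RIP over input at 23.3-fold and 20.4-fold for variants 1 and 2 after TMM scaling. On library totals these folds were 52.9 and 45.9. The log2 ratio of 4.44 was ordinary at this input abundance. It lay above 55.1% of the IDs with 1 to 200 summed input counts, whose median was 4.08, and 47.8% of them were called higher. VEGFA, the angiogenic growth factor, had 108 and 111 CPM in RIP and 36.0 and 52.5 in the inputs. Its ratio was 0.13 ± 0.30 under TMM scaling, without a call (edgeR adjusted p = 0.72), and 1.33 on library totals (0.011). Of the 5 higher calls, 3 were left with the construct as a block (STC2, NUPR1 and VLDLR). In that fit 8289 of all 41622 IDs tested were higher, against 20595 in the main fit. The call of STC2 carries no weight here, because every tested ID at 0 in both inputs was called higher in the main fit. Without either RIP library, which leaves 1 library in that fraction, higher calls fell across the whole table as well as among these genes. The log2 ratios without RIP variant 1 were 11.5 (STC2), 4.54 (NUPR1) and 4.30 (VLDLR). Without RIP variant 2 they were 12.4, 5.33 and 4.58 in the same order.

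Each RIP library was also set against its own input, which leaves 1 library a side and no test. In RIP variant 1, 29 of the 42 genes were below the input level by 2-fold or more and 5 above it, where 54.7% and 16.1% of the expressed IDs (23.1% and 63.1% of all tested) were. With variant 2 it was 32 and 4, where 53.4% and 15.7% (21.2% and 64.4% of all tested) were. At least 2-fold lower with both variants were 27 genes, and at least 2-fold higher with both were 4 (STC2, NUPR1, VLDLR and JDP2). Of the expressed IDs, 45.2% were that much lower and 11.1% that much higher with both, and of all tested 17.3% and 59.2%. The sign was the same with both variants for 40 of the 42 genes (95.2%), the exceptions being ASNS and VEGFA. It was the same for 86.2% of the expressed IDs and 90.6% of all tested.

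Between the RIP libraries of the variants, with 1 library a side and so no test, 8 of the 42 genes were at least 2-fold apart. Of these, 4 were higher and 4 lower with variant 1, where 12.7% and 18% of the expressed IDs (18.7% and 22.8% of all tested) were. These counts are therefore no more than the table as a whole gives. Higher with variant 1 were ASNS (3.42-fold, 95% exact interval of the count ratio 2.63 to 4.47), PSPH (2.82-fold, 2.30 to 3.51), SESN2 (2.09-fold, 1.51 to 2.89) and SLC7A1 (2.08-fold, 1.63 to 2.66). XPOT came next at 1.93-fold. Higher with variant 2 were PSAT1 (2.47-fold, 1.81 to 3.43), CHAC1 (2.36-fold, 1.37 to 4.26), ATF3 (2.11-fold, 1.71 to 2.61) and ATF4 (2.02-fold, 1.53 to 2.68), with SLC3A2 next at 1.92-fold. Genes of 1 pathway went both ways, as PSPH and PSAT1 of serine synthesis did. The synthetases differed less than 2-fold, with log2 ratios of variant 1 over variant 2 from -0.93 (TARS1) to 0.66 (LARS1).

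**Figure D4:**
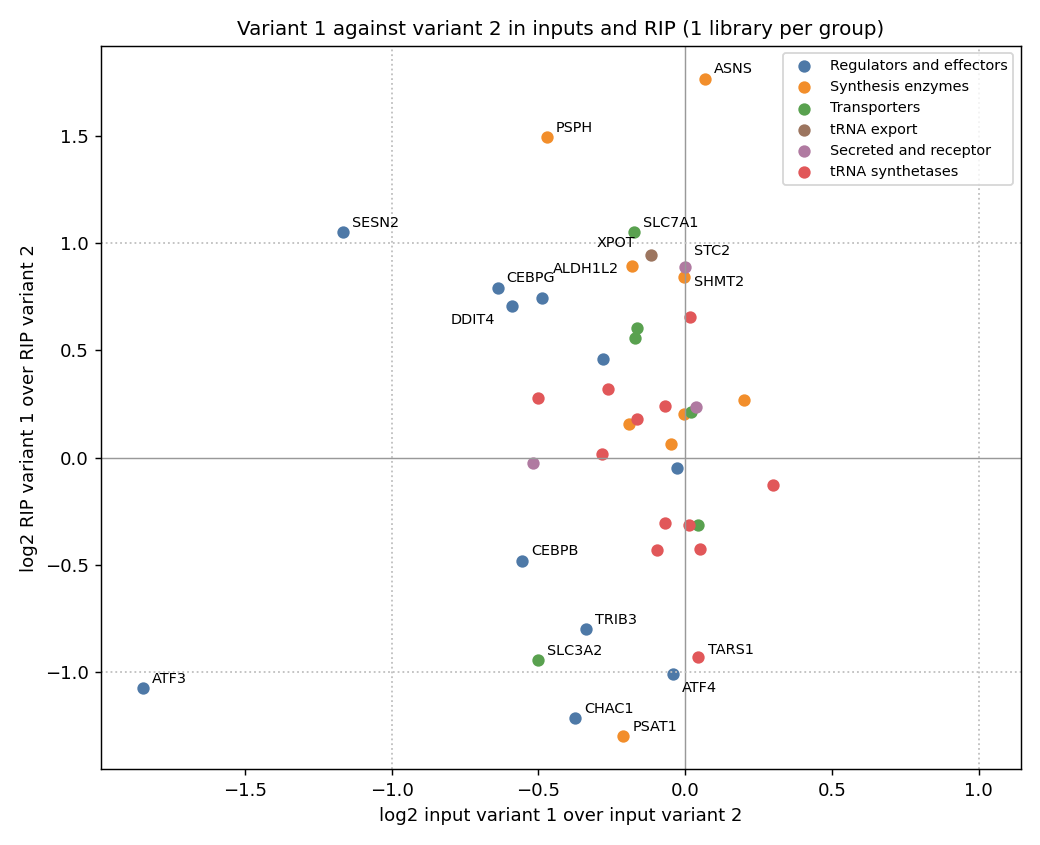
Log2 ratio of RIP variant 1 over RIP variant 2 (vertical axis) against log2 ratio of the input of variant 1 over that of variant 2 (horizontal axis), TMM-scaled with a prior count of 2, for the 42 genes coloured by role. Dotted lines mark a 2-fold difference, which 8 genes reach between the RIP libraries and only ATF3 and SESN2 between the inputs.

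The inputs of the variants were compared in the same way, with 1 library a side and no test. At least 2-fold apart were 2 of 42 genes, both higher with variant 2, where 3.42% of the expressed IDs were that far apart in this direction and 3.79% in the other. Over all tested IDs these shares were 10.8% and 14.1%. ATF3 had input counts of 854 (variant 1, 16.9 CPM) and 3644 (variant 2, 62.0 CPM), which is 3.60-fold higher with variant 2 (95% exact interval 3.34 to 3.89). SESN2 had 692 counts (13.7 CPM) and 1843 (31.3 CPM), 2.25-fold higher with variant 2 (2.06 to 2.46). CEBPG (1.56-fold), DDIT4 (1.51-fold) and CEBPB (1.47-fold) followed in the same direction. All 11 regulators and effectors had a log2 ratio of variant 1 over variant 2 below 0, with a median of -0.49, and 31 of the 42 genes did. Of the expressed IDs, 49.2% had a ratio below 0, and their median was 0.01. These sign counts moved with the scaling. With counts halved, which put the median of expressed IDs at 0.21, 9 of the 11 regulators, 17 of the 42 genes and 28.3% of expressed IDs were below 0, and with DESeq2 size factors 10 of the 11 were. A difference between regulators and synthetases was not tested.

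ATF4 itself and its target ASNS were nearly level between the inputs. ATF4 was 1.03-fold higher with variant 2 (95% exact interval 1.00 to 1.06), and ASNS stood at 0.955-fold (0.88 to 1.04). CHAC1 (1.30-fold, 1.12 to 1.50) and TRIB3 (1.27-fold, 1.18 to 1.36) were modestly higher with variant 2, and DDIT3 was at 1.02-fold (0.92 to 1.13). The synthetases lay between log2 ratios of -0.50 (CARS1) and 0.30 (WARS1), with a median of -0.07. WARS1 and GPT2 had the highest ratios toward variant 1, with folds of variant 2 over variant 1 of 0.81 and 0.87. The intervals hold counting error only, and 1 library per line cannot separate the variant from other differences between the cultures. In such bulk RNA, fewer cells with a transcript and less of it per cell cannot be told apart.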

How the data were processed

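Per the submitters' processing notes, reads were handled with HISAT2 2.1.0 and featureCounts (Subread 2.0.0) on GRCh38.p13. How strand and multi-mapping reads were treated, and the annotation release, is not stated in the labels. The authors deposited estimated counts per Ensembl ID, not normalized per the file headers, and 13.9% to 18.0% of a library's values are fractional. They were rounded. The test was edgeR 4.0.16 (R 4.3.3) with glmQLFit and glmQLFTest, TMM scaling and filterByExpr by fraction (minimum count 10), on 41622 IDs and 2 residual degrees of freedom, with SE taken as the size of the log2 ratio over the root of F. The test was also run on simulated counts in which few IDs changed, as many up as down. In these libraries 49.5% of IDs tested were higher and 15.8% lower, so the simulation does not check the scaling used here. The TMM factors were 1.50 and 1.54 for the RIP libraries and 0.655 and 0.665 for the inputs (variants 1 and 2). DESeq2 1.42.0 and limma 3.58.1 (voom) were alternatives. Single libraries were compared by TMM-scaled log2 CPM (prior count 2), with exact Poisson or Clopper-Pearson intervals (SciPy 1.17.1). The labels tie each RIP library to an input of the same experiment. A fit blocked on construct, with 1 residual degree of freedom, was therefore added. Differences between variants in RIP and in input had a correlation of -0.0052 over 15450 IDs and 0.088 over the 42 genes. Members, lists, ranges of input counts and the motif were chosen with earlier results of these data known. Genes were named by a rule: 5 core genes, the 5 highest and lowest ratios, genes at 0, the 5 furthest apart between libraries and all 12 synthetases. Values of the other members complete the account. Other synthetase, kinase and cell type lists had no named IDs and were not analysed here.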

Additional observations from a re-analysis of the deposited data

Results flagged for a closer look

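For ASNS and VEGFA the RIP libraries fell on opposite sides of their inputs. Each side is 1 library, so no test of these differences was possible. The log2 RIP over input of ASNS was 0.19 (variant 1) and -1.51 (variant 2), which are 1.70 apart. On library totals it was 1.36 and -0.35, so the signs stayed opposite. The log2 RIP over input of VEGFA was 0.40 (variant 1) and -0.09 (variant 2), which are 0.49 apart. On library totals both values of VEGFA were above 0, at 1.58 and 1.08.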

How the results depend on the processing

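The count of lower genes (29) stayed between 22 (library totals) and 31 (no filter on low counts) in all alternatives. Of the 15450 expressed IDs, 3212 were lower on library totals and 6992 without the filter, against 6509 in the main fit. Of the 29 genes, 22 kept their call in each alternative, and how many other IDs did so was not counted. The count of higher genes (5) was 8 on library totals and 3 with the construct as replicate block. Over all 41622 IDs tested, 24271 and 8289 were higher in these fits, against 20595 in the main fit. The count also fell when 1 library was left out, where the lone library is assumed to vary like the other fraction. Higher calls over the whole table fell there as well. Only VLDLR kept a higher call throughout. In the range of input counts that holds VLDLR, 47.8% of all tested IDs were higher in the main fit. The block turned no direction. Against its own input, RIP variant 1 had 5 genes higher by 2-fold or more, and 8 both on library totals and with TMM factors from the expressed IDs (8). The 2 genes at least 2-fold lower in input variant 1 than input variant 2 became 1 with counts halved. The ratios that changed sign belonged to genes without a call in the main fit. Of these, PHGDH and GPT2 were called higher on library totals and in the fit of expressed IDs alone. On library totals they were 0.36 for ATF3, 0.027 for TRIB3, 0.14 for CHAC1, 0.77 for ASNS, 1.03 for PHGDH and 0.96 for GPT2. Fitting expressed IDs alone gave 0.28 for ATF3, 0.052 for CHAC1, 0.70 for ASNS, 0.95 for PHGDH and 0.88 for GPT2. At least 50 counts in 2 or more libraries gave 0.10 for ASNS, 0.35 for PHGDH and 0.28 for GPT2. DESeq2 size factors gave 0.17 for PHGDH and 0.10 for GPT2, and so did the DESeq2 Wald test (0.17 and 0.10). Without a filter VEGFA was at -0.053, without the input of variant 1 at -0.18. ATF3 was at 0.075 without the input of variant 2, and ASNS at 0.23 without RIP variant 2. For each of these the cause was not tested. The shallow RIP libraries limit genes such as DDIT3 and CHAC1.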
